A study of Mus musculus with 20 samples.

Results

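Fibroblast growth factor (Fgf) signalling was varied in mouse embryonic stem cells (mESCs, a male 129P2/OlaHsd line) that had first been directed towards mesendoderm, the progenitor of mesoderm and endoderm at the primitive streak. The wells were pooled for droplet single-cell RNA sequencing after each had been tagged with barcodelets, short synthetic RNAs that are transfected into the cells and read back from each of them. The wells described were those whose design entry gives the mesendoderm start, with at least 5 cells assigned to them. They were 72 of 144 wells and held 3159 of the 4869 cells with an assignment. Of these wells, 32 were at Fgf plus (1606 cells), 32 at Fgf minus (1093 cells) and 8 were controls (460 cells).

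All 72 wells shared the same first day: 24 h in a medium with 2% serum that held Activin A, a GSK3 inhibitor, Fgf2, Dorsomorphin and CD 2665. Activin A activates Nodal-type signalling and the GSK3 inhibitor activates Wnt signalling. Dorsomorphin inhibits Bmp receptors and CD 2665 blocks retinoic acid receptors. Over the next 24 h each treated well received 1 of the 32 combinations of retinoic acid (RA), Wnt, Bmp, Tgfb and Fgf, each at plus or at minus, with 2 wells per combination. In each combination 1 well carried 3 barcodelets and 1 carried 5. The main fit has no term for this pairing, and a fit with one is given below. Control wells received none of the combinations, but had been exposed to Fgf2 on the first day like the others. The compounds that stand for Fgf plus and minus are not named in the design table of these wells. In the germ layer experiment of the series, plus is Fgf2 and minus is UO126, an inhibitor of the kinase MEK. The 16 combinations of the other 4 pathways are called backgrounds here, and each was present at both Fgf levels.

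The wells held 8 to 97 cells (median 40) and 195183 to 2119355 unique molecular identifiers (UMIs, counts of RNA molecules, median 837115). Cells per well were 50.2 ± 21.0 (SD, n = 32) at Fgf plus and 34.2 ± 14.4 (n = 32) at Fgf minus, and plus was the higher in 15 of 16 backgrounds (adjusted p = 0.001933, 2-sided permutation test within backgrounds, 5 measures). Total UMIs per well differed too, at 1109000 ± 408500 at Fgf plus and 683700 ± 253000 at Fgf minus. Fgf plus was the higher in 16 of 16 backgrounds (adjusted p = 5e-05, same test). The SDs span wells of 3 and of 5 barcodelets, a pairing that the permutation did not use. Genes detected per cell also differed, with well medians of 4289 ± 229 against 4069 ± 279 (adjusted p = 0.001933). The UMIs per cell were 20470 ± 2459 against 19050 ± 3182 (adjusted p = 0.05914), and the mitochondrial share of UMIs was 5.99% against 5.94% (adjusted p = 0.8101). With cells per well in the fit, 1154 genes were called instead of the 1267 given below, and with UMIs per cell 1292. With wells of at least 20 cells 1163 were called, without the 5% of cells with most UMIs 950, and with every well thinned to the total of the shallowest 429. The first barcodelet of every treated well also follows the Fgf level, so barcodelet and Fgf level cannot be told apart. The wells are separate wells of a single pooled library, and p-values measure the spread between them.

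The mesendoderm label was checked in the control wells against the 8 controls of the undirected start, which skipped the first-day treatment. Levels are CPM (UMI counts scaled to a common library total), made comparable between wells by the trimmed mean of M-values (TMM). T (Brachyury, the defining factor of the primitive streak) was at 25.7 to 73.8 CPM (median 42.4) after the mesendoderm start and at 1.33 to 33.1 (median 14.3) without it. Fgf8, a streak ligand, was at 31.1 to 61.9 CPM against 4.11 to 15.0, and these wells did not overlap. The summed level of 7 streak markers was 83.0 to 162 CPM against 17.3 to 63.7, again without overlap. Eomes was low in both (medians 7.46 and 4.48 CPM), and Gsc, Lhx1 and Mesp1 had medians under 2 CPM. Naive pluripotency genes had not been lost and were higher after the mesendoderm start than without it. Their 3 markers summed to a median of 736 CPM after it (600.3 to 1000) and of 456 without it (292 to 727), with overlap. Definitive endoderm markers summed to 0.926 to 18.9 CPM, and Cer1 was at 0 in every control well. Among the naive pluripotency markers, Zfp42 alone had medians of 626 CPM after the mesendoderm start and 376 without it. The control wells were collected at the end of the second day, so they show the mesendoderm start after a further day without a combination.

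FGFs bind receptor tyrosine kinases that, through adaptors and RAS, activate the kinases RAF, MEK and ERK. ERK switches on a set of immediate genes, among them the sprouty and dual specificity phosphatase (DUSP) families, which damp the same pathway, and the ETS factors of the Etv family. In mESCs, Fgf4 and ERK signalling moves cells out of naive pluripotency, and in the gastrula Fgf signals are needed for mesoderm to leave the streak.

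Fgf plus against Fgf minus changed many genes, most of them modestly. Of 8574 genes tested, 1267 passed the test (14.8%, edgeR quasi-likelihood test, Benjamini-Hochberg adjusted p under 0.05): 633 rose at Fgf plus (7.38%) and 634 fell (7.39%). Of the genes that passed, 187 changed by over 1.5-fold and 48 by over 2-fold, with a median of 1.23-fold. Sprouty 4 and the ETS factor Etv4 stood among the 10 largest rises, and the ligand gene Fgf4 among the 10 largest falls. In the same fit, Wnt called 1768 genes higher and 1893 lower, RA 1309 and 1357, Bmp 514 and 502, and Tgfb 378 and 234. With library totals as the only scaling, 1061 genes rose and 364 fell, so 74.5% of calls were rises against 50.0% with TMM, and the median of all genes moved from -0.01 to 0.05 on the log2 scale. No gene separated all Fgf plus wells from all Fgf minus wells (0%), and the other 4 pathways vary within both groups.

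Most of the feedback inhibitors of the pathway rose. Of the 14 listed, 12 were tested, and 10 of them rose (83.3%, beside 7.38% of all genes), none fell, and their median log2 change was 0.48 beside -0.01 for all genes. Spry4, an inhibitor of RAS-to-ERK signalling, ranged from 1.83 to 35.98 CPM (median 15.5) at Fgf plus, from 0 to 12.2 (median 3.50) at Fgf minus and from 3.67 to 14.6 (median 7.89) in controls. No Fgf minus well reached the Fgf plus median, and Fgf plus was the higher in all 16 backgrounds. The change of Spry4 was 1.74 ± 0.16 on the log2 scale (standard error, adjusted p = 2.89e-14), a 3.35-fold rise. Spry2, its relative on chromosome 14 (105891947 to 105896819 in GRCm38), had medians of 43.7 CPM at plus, 26.4 at minus and 30.4 in controls and rose by 0.70 ± 0.10 (adjusted p = 2.47e-07), with overlapping wells. Spry1 rose by 0.54 ± 0.14, but with every well thinned to the total of the shallowest its change was -0.08 and not called.

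The DUSP members of the list remove the activating phosphates of MAP kinases. Dusp6, an ERK phosphatase in the cytoplasm (chromosome 10, 99263231 to 99267489), ranged from 6.12 to 70.2 CPM (median 30.9) at Fgf plus, from 1.48 to 29.8 (median 15.3) at minus and from 13.2 to 29.3 (median 20.2) in controls. All Fgf minus wells lay below the Fgf plus median, while 7 Fgf plus wells lay below the Fgf minus median. Dusp6 rose by 0.92 ± 0.14 (adjusted p = 8.09e-07) and was higher at plus in 13 of 16 backgrounds. Dusp4 and Dusp5, both nuclear phosphatases, rose by 0.98 ± 0.17 and 0.91 ± 0.15. Smaller rises were seen for Il17rd (0.41 ± 0.11), a membrane inhibitor of FGF receptors also known as Sef, for Spred1 (0.33 ± 0.07) and Spred2 (0.33 ± 0.09), inhibitors of RAF activation, and for Dusp9 (0.33 ± 0.09). Dusp7 was at -0.02 ± 0.13 (adjusted p = 0.973) and had no stable sign across settings. Spry3 and Spred3 were too low to test.

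Upstream sequences are shown because genes of the FGF and ERK lists rose at Fgf plus, and ETS and AP-1 factors are known nuclear targets of ERK, whose activity was not measured here. The RefSeq table (GRCm38.p6) held promoters for 10 of the 16 feedback and induced genes that rose, and the 250 bases before each start were searched on both strands for CCGGAAG, an ETS core, and TGACTCA, the AP-1 site. Neither run of letters was present in these 10 promoters, while 6.91% of all 32851 promoters held the first and 4.46% the second. With 10 promoters, absence cannot be told apart from these shares. Spry4, Etv4, Dusp4, Dusp9, Phlda1 and Ier2 had no promoter there and were not searched. In the 6 promoters of the 5 transducer genes that rose, described below, the ETS letters were present in 1, that of Ptpn11 (bases 103 to 97 before the start), and the AP-1 letters in 1, the second promoter of Shc1 (reverse strand, bases 92 to 86). Of the 10 genes with the largest rise, 4 had 5 promoters in the table, and the AP-1 letters were present in 1, that of Anxa2 (reverse strand, bases 95 to 89). Ptpn11 encodes the phosphatase SHP2 that links receptors to RAS, and Anxa2, a calcium-dependent membrane protein, was among the 10 largest rises. A match is a description of the letters and not evidence of binding. The sequences run 5′ to 3′ on the gene's strand, and capitals mark the motif: Dusp6 at chr10:99262981-99263230 (plus strand), Spry2 at chr14:105896820-105897069 (minus strand), Ptpn11 at chr5:121191398-121191647 (minus strand) and Anxa2 at chr9:69453433-69453682 (plus strand).
Dusp6: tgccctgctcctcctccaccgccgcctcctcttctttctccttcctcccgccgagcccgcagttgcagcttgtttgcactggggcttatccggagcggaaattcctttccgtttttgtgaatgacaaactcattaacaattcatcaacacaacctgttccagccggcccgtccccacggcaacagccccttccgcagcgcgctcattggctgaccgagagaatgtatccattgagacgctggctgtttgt
Spry2: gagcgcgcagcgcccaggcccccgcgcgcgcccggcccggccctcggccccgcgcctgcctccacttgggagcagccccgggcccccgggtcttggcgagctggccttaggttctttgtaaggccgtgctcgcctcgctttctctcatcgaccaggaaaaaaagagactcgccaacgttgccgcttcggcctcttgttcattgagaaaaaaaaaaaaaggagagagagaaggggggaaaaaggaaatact
Ptpn11: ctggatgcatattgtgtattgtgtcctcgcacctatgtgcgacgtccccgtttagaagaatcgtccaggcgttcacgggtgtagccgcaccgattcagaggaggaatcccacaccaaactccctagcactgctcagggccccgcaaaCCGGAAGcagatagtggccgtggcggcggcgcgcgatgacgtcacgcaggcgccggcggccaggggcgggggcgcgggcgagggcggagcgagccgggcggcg
Anxa2: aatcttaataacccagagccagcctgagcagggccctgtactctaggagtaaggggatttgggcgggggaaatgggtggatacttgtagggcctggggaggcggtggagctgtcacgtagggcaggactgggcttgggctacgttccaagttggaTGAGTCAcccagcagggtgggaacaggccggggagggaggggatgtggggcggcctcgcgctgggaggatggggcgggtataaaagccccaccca

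Among transcription factors and other genes that ERK is known to induce, 11 of the 20 listed were tested, and 6 rose (54.5%) and 1 fell (9.09%), with a median of 0.33. Etv4, an ETS factor of the PEA3 group (chromosome 11, 101769742 to 101785371), ranged from 13.8 to 79.2 CPM (median 47.0) at Fgf plus, from 0 to 35.3 (median 16.0) at minus and from 11.8 to 35.7 (median 22.8) in controls. No minus well reached the plus median, and plus was the higher in all 16 backgrounds. Etv4 rose by 1.45 ± 0.12 (adjusted p = 1.61e-15), 2.73-fold. Its close relative Etv5 was at 0.02 ± 0.10 (adjusted p = 0.932), with medians of 29.0 CPM at plus and 28.3 at minus, and its 8 control wells (45.8 to 63.9 CPM, median 55.8) lay above both medians. Phlda1, an early response gene of growth factors, rose by 0.64 ± 0.12, and the AP-1 subunit Junb rose by 0.86 ± 0.13, with counts that are uncertain because its exons overlap Prdx2. The ephrin receptors moved apart: Epha2 rose by 0.54 ± 0.10 and Epha4 fell by 0.51 ± 0.12. Klf6 and Ier2 also rose, with less stable calls. Klf6 lost its call in 11 of the 16 fits that left out a background and in 9 of 20 other settings. Ier2 lost its call with the wells of 3 barcodelets alone (adjusted p = 0.0603), with those of 5 alone (0.206) and thinned (0.388). Egr1, a zinc finger factor often read as an ERK reporter, was at 0.33 ± 0.18 (adjusted p = 0.221) at 13.2 against 10.4 CPM. Fos, Egr2, Egr3, Fosl1 and Myc were among the 9 members too low to test.

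**Figure D1:**
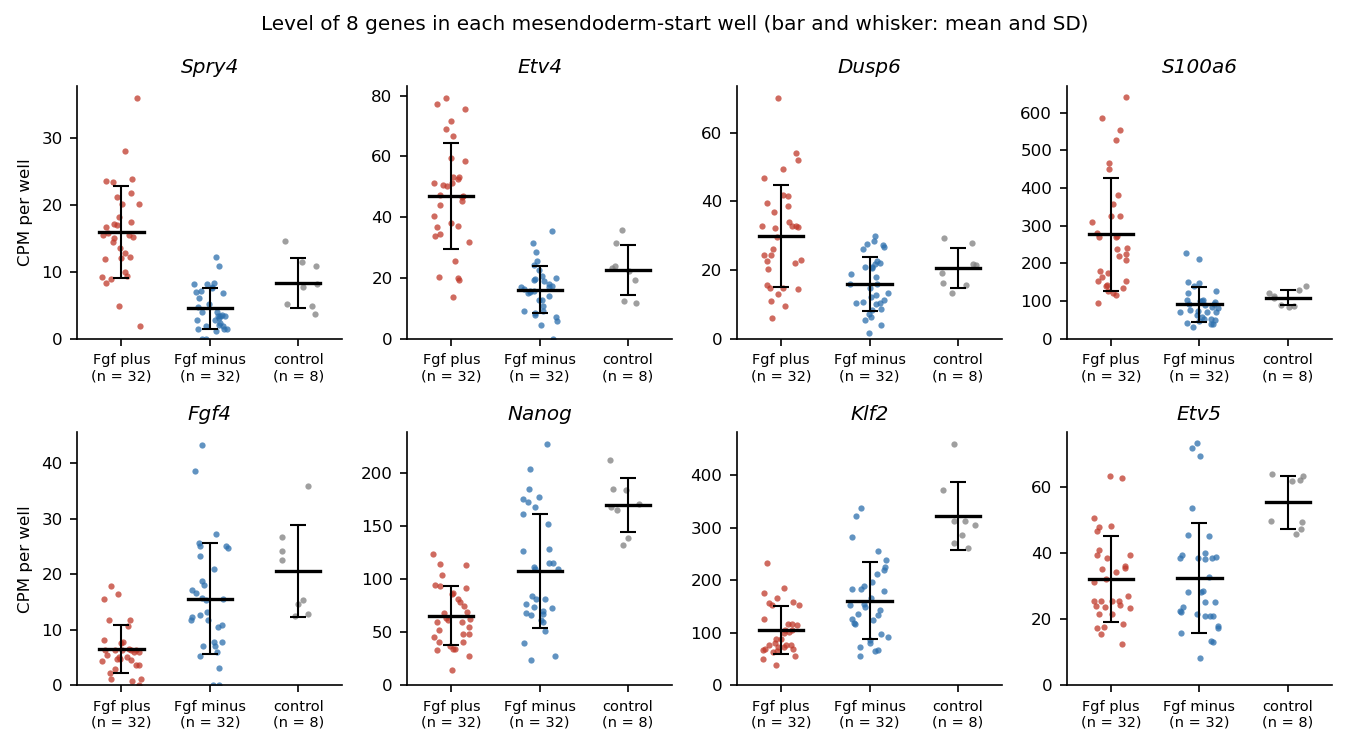
CPM per well of 8 genes on linear axes, with 1 point for each of the 32 Fgf plus, 32 Fgf minus and 8 control wells, a bar at each mean and whiskers of 1 SD. The plus wells of Spry4, Etv4 and S100a6 lie mostly above the minus wells with some overlap, Fgf4, Nanog and Klf2 lie lower at plus, and Etv5 has like means of 32.2 and 32.4 CPM below its control wells (55.4).

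Few ligand and receptor genes were tested, and the shares that passed rest on 1 gene each way at most. Of 15 FGF ligand genes, 6 were tested, and Fgf4 alone passed, as a fall (16.7%, beside 7.39% of all genes). Fgf4, the main autocrine ligand of mESCs (chromosome 7, 144847367 to 144865243), had medians of 5.96 CPM at Fgf plus (0 to 17.8), 14.2 at minus (0 to 43.4) and 18.9 in controls (12.4 to 35.9). It fell by 1.17 ± 0.19 (adjusted p = 1.16e-06) and was lower at plus in 14 of 16 backgrounds. Fgf8 was at -0.44 ± 0.21 (adjusted p = 0.164) and Fgf13 at 0.34 ± 0.14 (adjusted p = 0.0903). Of 12 receptors and co-receptors, 7 were tested, and the heparan sulphate carrier Sdc1 rose (0.34 ± 0.10) while Sdc4 fell (by 0.35 ± 0.10), 14.3% each way. With cells per well as a term Sdc4 lost its call (adjusted p = 0.0905). Neither the tested FGF receptors themselves nor the remaining members passed.

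Of the 26 RAS-to-MAP kinase transducers, 24 were tested and 5 rose (20.8%, beside 7.38% of all genes), with a list median of 0.01. Elk3, an ETS factor regulated by ERK, rose by 0.94 ± 0.12 (adjusted p = 9.52e-09) from 8.62 to 16.6 CPM, and its exons overlap Cdk17. The adaptor Shc1 rose by 0.41 ± 0.08, Ptpn11 by 0.22 ± 0.06 and Nras by 0.18 ± 0.05. With cells per well as a term, Ptpn11 was at 0.12 (adjusted p = 0.193) and Nras at 0.10 (0.162), so both lost the call and moved by over 1.5 times. The exchange factor Sos1 was at -0.23 ± 0.09 (adjusted p = 0.0951).

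Pluripotency genes split by state. Of the 15 naive pluripotency genes, 14 were tested, 11 fell (78.6%, beside 7.39% of all genes) and 1 rose, with a median log2 change of -0.49. Nanog, listed here among the general pluripotency genes and a core factor of that network (chromosome 6, 122707489 to 122714633), ranged from 14.5 to 123 CPM (median 61.4) at Fgf plus, from 23.2 to 228 (median 96.5) at minus and from 132 to 212 (median 169.6) in controls. Every control well lay above the highest Fgf plus well, and plus was the lower in 15 of 16 backgrounds. Nanog fell by 0.65 ± 0.09 (adjusted p = 7.04e-08). Klf2, a naive factor that ERK signalling is known to destabilise, had medians of 92.9 CPM at plus, 150.2 at minus and 309.6 in controls and fell by 0.57 ± 0.09 (adjusted p = 3.56e-07). Tfcp2l1 fell by 0.63 ± 0.10 and was lower at plus in all 16 backgrounds, and the nuclear receptor gene Nr5a2 fell by 0.74 ± 0.13. Klf5 was the member that rose, by 0.29 ± 0.11 (adjusted p = 0.0493), a call that DESeq2 did not share (0.0562).

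The 12 listed genes of primed epiblast, the state that follows naive pluripotency, moved the other way: of 9 tested, 5 rose (55.6%), none fell and the median was 0.47. The DNA methyltransferase Dnmt3b rose by 0.47 ± 0.09 and was higher at plus in all 16 backgrounds, yet its control wells (83.8 to 148 CPM, median 119) lay above the plus median of 63.0. Pou3f1 (Oct6), a POU factor of the epiblast, rose by 1.04 ± 0.21, 13.6 against 6.35 CPM. The carbonic anhydrase gene Car2 rose by 0.53 ± 0.10 and Lef1, a partner of beta-catenin, by 0.53 ± 0.10. Of 12 general pluripotency genes, 11 were tested, 3 rose (27.3%) and 2 fell (18.2%), with a median of 0.02. Utf1 (0.45 ± 0.10) and the RNA-binding protein gene Lin28a (0.36 ± 0.08) rose, and Sox2 fell (by 0.37 ± 0.08), as Nanog did.

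Germ cell and Hedgehog genes fell in small numbers. Of 10 germ cell genes, 8 were tested and 3 fell (37.5%, beside 7.39% of all genes): Dppa3 (by 0.63 ± 0.15), which is also a naive marker, the receptor gene Kit (by 0.51 ± 0.13) and Dazl (by 0.64 ± 0.19). Dazl lost its call with cells per well as a term (adjusted p = 0.107) and thinned (-0.22, 0.789). Levels were low, at 25.1 against 38.6 CPM for Dppa3 and 10.0 against 16.6 for Dazl, and Dnd1 was at 0.34 ± 0.21 (adjusted p = 0.307). Of 8 Hedgehog targets, 3 were tested, and 2 fell (66.7%): the receptor gene Ptch1 by 0.67 ± 0.12 and the effector Gli2 by 0.69 ± 0.13.

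Of 14 primitive streak markers, 9 were tested, 3 rose (33.3%, beside 7.38% of all genes) and none fell (median 0.34), and none of the 3 was called by DESeq2. Mixl1, a homeobox factor of the streak (chromosome 1, 180693043 to 180697034), ranged from 2.93 to 279 CPM (median 28.7) at Fgf plus, from 0.864 to 82.8 (median 15.5) at minus and from 4.41 to 26.5 (median 10.2) in controls. It rose by 1.03 ± 0.20 (adjusted p = 1.08e-04) but was higher at plus in only 10 of 16 backgrounds, and DESeq2 gave it 0.66 (adjusted p = 0.0669). T had medians of 67.3 CPM at plus and 48.8 at minus, rose by 0.47 ± 0.16 (adjusted p = 0.0298), and lost the call in DESeq2 (adjusted p = 0.47) with pairwise products of pathways in the fit (0.216) and in 6 of the 16 fits that left out a background. Evx1 rose by 0.70 ± 0.19, with an adjusted p of 0.119 in DESeq2. The summed streak markers ranged from 19.3 to 677 CPM (median 132) at plus and from 15.6 to 404 (median 107) at minus, so the groups overlapped over most of their range.

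Of 16 caudal epiblast genes, the programme of the growing tail end of the embryo, 15 were tested, 5 rose (33.3%) and none fell (median 0.35). Cdx2, a caudal homeobox factor, rose by 0.50 ± 0.10 (adjusted p = 1.49e-04) at 76.1 against 53.8 CPM. Cdx4 rose by 0.91 ± 0.29 (adjusted p = 0.0238), a call lost in DESeq2 (0.16) and with pairwise products in the fit (0.201). By background, as a difference of log2(CPM + 5), Cdx4 differed by 0.081 to 1.361 at Wnt plus and by -0.929 to 0.793 at Wnt minus. T and Evx1 stand in this list too, and T among the Wnt targets, so the streak, caudal and Wnt counts are not independent. In the same fit the Wnt change of Cdx2 was 1.74 and that of T 2.12, each larger than its Fgf change. The remaining lineage lists had few members above the test's floor. Definitive endoderm had 1 rise of 5 tested (20%) and paraxial mesoderm 1 of 4 (25%), beside 7.38% of all genes. Lateral mesoderm had 0 of 7, and blood and endothelium 1 fall of 5 (20%, beside 7.39%). The definitive endoderm rise was Krt19, counted again below among the surface ectoderm genes. Fgf4 likewise stands among both the ligands and the naive genes, and Lef1 among both the primed epiblast genes and the Wnt targets.

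Epithelial genes were among the larger rises. Of 14 surface ectoderm genes, 9 were tested and 3 rose (33.3%, beside 7.38% of all genes), all of them keratins, the filament proteins of simple epithelia. Krt8 had medians of 184.5 CPM at Fgf plus, 91.1 at minus and 145 in controls and rose by 0.85 ± 0.15. Krt18, its partner in the filament, had medians of 172, 103 and 118 CPM, rose by 0.83 ± 0.15 and was higher at plus in all 16 backgrounds. Krt19 rose 2.46-fold (adjusted p = 1.44e-07), also in all 16. Tfap2c, a transcription factor of the same list, was at -0.05 ± 0.11 (adjusted p = 0.816), and Tfap2a was too low to test.

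Of 15 cadherin and epithelial-mesenchymal transition genes, 13 were tested, 6 rose (46.2%) and none fell (median 0.26). Both the epithelial cadherin Cdh1 (0.35 ± 0.08) and the mesenchymal cadherin Cdh2 (0.47 ± 0.13) rose. The tight junction gene Cldn7 rose by 0.56 ± 0.12 and the matrix gene Fn1 by 0.39 ± 0.11, while the repressor Zeb1 was at -0.39 ± 0.16 (adjusted p = 0.0889). Genes of both kinds thus rose at Fgf plus over all wells, but not in every background. By background, read as for Cdx4, Cdh1 differed by -0.746 to -0.031 at RA minus with Wnt plus, and Fn1 by 0.602 to 1.611. At RA plus with Wnt minus, Cdh1 differed by 0.369 to 0.738 and Fn1 by -0.412 to -0.251. Elsewhere both mostly rose. Cldn7 and Cdh2 were higher at plus in most backgrounds. The Fgf change of Fn1 was 0.81 at Wnt plus and -0.08 at Wnt minus (adjusted p = 0.0118, product of Fgf and Wnt). Whether genes of both kinds rose in the same cells was not tested.

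The largest rises outside the lists included S100a6, a small calcium-binding protein (chromosome 3, 90612882 to 90624181). It ranged from 93.1 to 641 CPM (median 240) at Fgf plus, from 31.2 to 229 (median 82.8) at minus and from 84.9 to 139 (median 110) in controls. No Fgf plus well lay below the Fgf minus median and no minus well above the plus median. S100a6 rose by 1.497 ± 0.14 (adjusted p = 2.74e-14), in all 16 backgrounds. The annexins Anxa2 (1.14 ± 0.15, with an overlapping gene) and Anxa3 (1.13 ± 0.12), the membrane protein gene Emp3 (1.35 ± 0.15) and the receptor gene F2rl1 (1.12 ± 0.14) followed. Nefl (1.45 ± 0.22) overlaps Nefm, and Sprr2a3 (1.21 ± 0.26) has near-identical gene copies beside it, so both values are uncertain.

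The largest falls were led by the water and glycerol channel Aqp3, with medians of 5.53 CPM at Fgf plus and 15.2 at minus. It fell by 1.32 ± 0.19 (adjusted p = 1.60e-07) and was lower at plus in 15 of 16 backgrounds. Cidea, a lipid droplet protein (fell by 1.17 ± 0.19), the junction gene Jam2 (by 1.12 ± 0.17), Mobp (by 1.10 ± 0.17) and Calcoco2, an autophagy receptor (by 1.09 ± 0.18), were next. Stra8, the RA-induced gene of meiotic entry, fell by 0.82 ± 0.18, but DESeq2 gave an adjusted p of 0.1. Its call was also lost with pairwise products in the fit (-0.47, adjusted p = 0.0673). By background, read as for Cdx4, Stra8 differed by -1.911 to -0.265 at RA plus and by -0.736 to 0.668 at RA minus. The product of Fgf and RA, tested below, called no gene. Renbp (by 0.79 ± 0.15) and Gas1 (by 0.74 ± 0.20) completed the 10 largest falls with Fgf4 and Nr5a2, and the call of Gas1 was not shared by DESeq2 (0.159). With pairwise products in the fit Gas1 was at -0.37 (adjusted p = 0.267). Its difference by background was -1.504 to -0.463 at RA plus with Wnt minus, and -0.98 to 0.404 elsewhere.

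**Figure D2:**
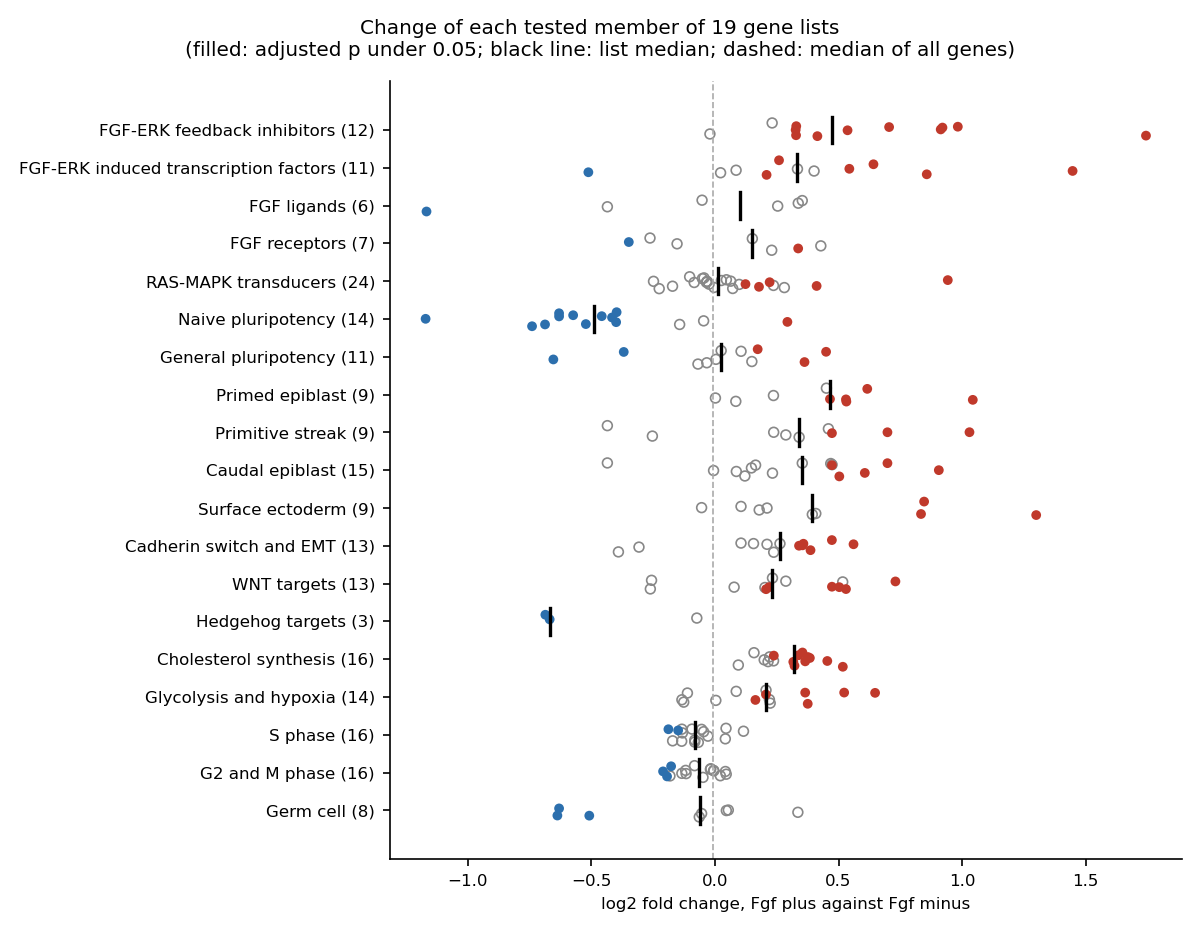
Log2 change at Fgf plus against minus of each tested member of the gene lists described, with filled points for genes at an adjusted p under 0.05, a black line at each list's median and a dashed line at the median of all genes. Feedback inhibitors and cholesterol synthesis lie to the right (medians 0.48 and 0.32) and naive pluripotency to the left (median -0.49).

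Metabolic and signalling target lists also held changes. All 16 cholesterol synthesis genes had positive values and 10 of them rose (62.5%, beside 7.38% of all genes, median 0.32), among them Hmgcs1 (0.38 ± 0.07), an early enzyme of the route, and Cyp51 (0.45 ± 0.10), a later one whose exons overlap another gene. Hmgcs1 had medians of 66.5 CPM at plus, 48.7 at minus and 51.0 in controls. Of 15 glycolysis and hypoxia genes, 14 were tested and 6 rose (42.9%, median 0.21). Ldha, lactate dehydrogenase, had medians of 344 CPM at plus, 266 at minus and 281 in controls and rose by 0.36 ± 0.05 (adjusted p = 1.40e-08) in all 16 backgrounds. Pkm rose by 0.21 ± 0.04, also in all 16, and the glucose transporter genes Slc2a1 (0.52 ± 0.11) and Slc2a3 (0.38 ± 0.09) rose. Gapdh was at -0.11 ± 0.04 (adjusted p = 0.0612).

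Of 15 Wnt targets, 13 were tested, 6 rose (46.2%) and none fell (median 0.23). The cyclin gene Ccnd2 had medians of 114 CPM at Fgf plus, 63.2 at minus and 62.9 in controls and rose by 0.73 ± 0.11 (adjusted p = 6.42e-07). Lef1, Cdx2 and Ccnd1 (0.22 ± 0.07, adjusted p = 0.0287) were further members that rose. Ccnd1 lost its call in 5 of the 16 fits that left out a background and with cells per well as a term (0.0809), and Znrf3 was at -0.26 ± 0.11 (adjusted p = 0.0857). Of 16 S phase genes 2 fell (12.5%, Mcm3 by 0.19 ± 0.05 and Tyms by 0.15 ± 0.05), and of 16 G2 and M phase genes 3 fell (18.8%, beside 7.39% of all genes), among them Top2a (by 0.19 ± 0.04) and Cenpf (by 0.18 ± 0.05). The calls of Mcm3 and Cenpf were lost with library totals as the only scaling and that of Tyms with 12 of 16 backgrounds left out in turn, and Rrm2 (0.12 ± 0.05) and Cdc20 (0.04 ± 0.07) were not called. Of the 36 lists, 4 had no called member.

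The sign of the Fgf change was also read in each background on its own, as the difference of log2(CPM + 5) between 2 plus and 2 minus wells. In all 16 backgrounds 59 genes were higher at plus (0.688%) and 32 lower (0.373%). Spry4 differed by 0.47 to 1.56 and Etv4 by 0.12 to 2.82 between backgrounds, always upwards. Nanog and Klf2 were lower at plus in 15 of 16. Dusp6 had 3 backgrounds with a lower value at plus, and Mixl1 and T had 6 each.

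**Figure D3:**
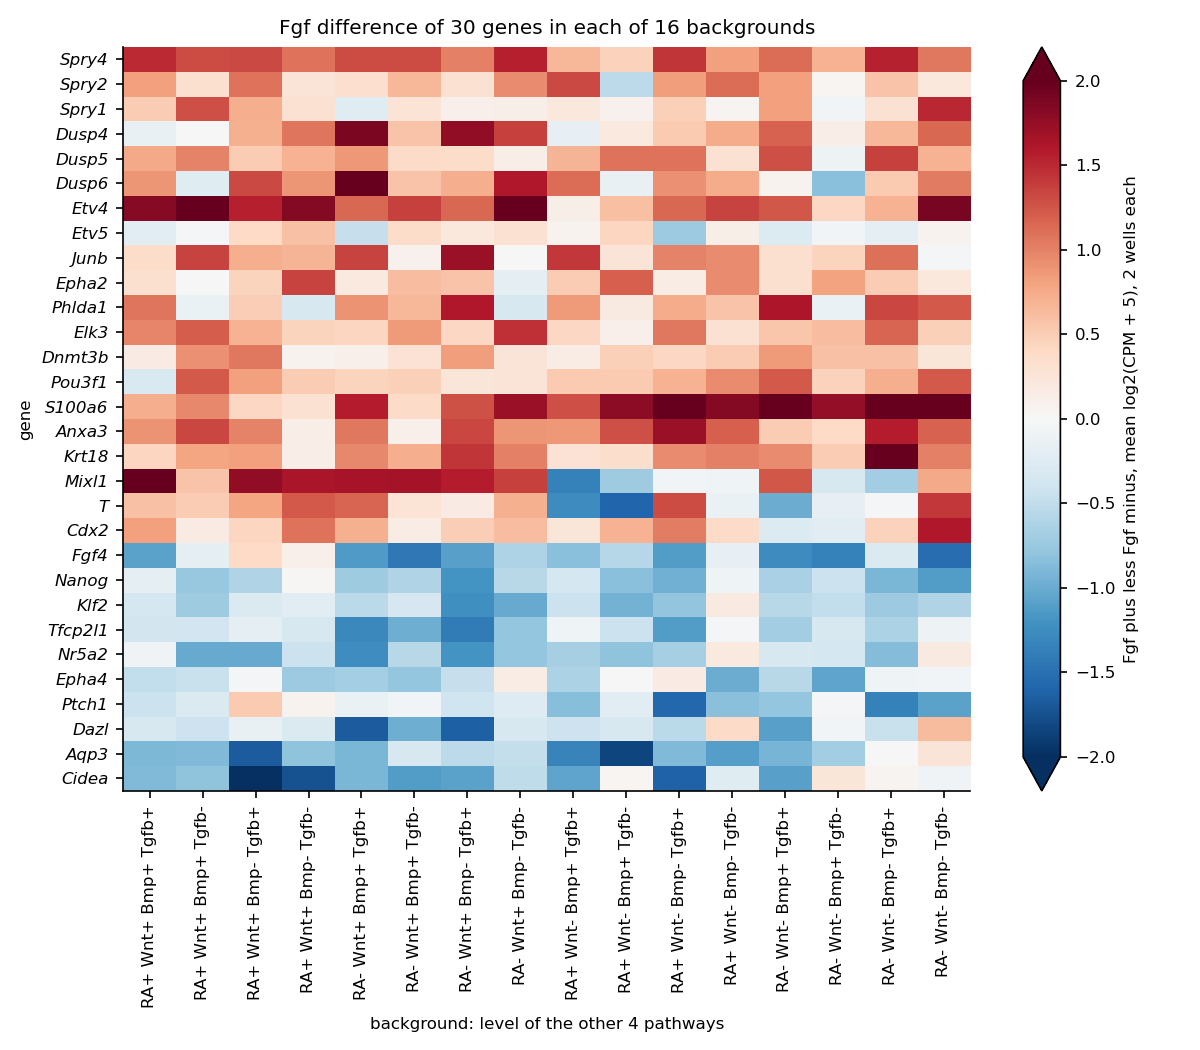
Difference of log2(CPM + 5) between the 2 Fgf plus and 2 Fgf minus wells of each of the 16 backgrounds (columns) for 30 genes, in red where plus was higher and in blue where it was lower. Spry4, Etv4 and S100a6 are red in all 16 columns and Tfcp2l1 is blue in all 16, while Mixl1 changes colour between columns.

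Whether the Fgf change depended on another pathway was tested with product terms. The product with Wnt called 20 genes (0.233%), 14 with a higher Fgf change at Wnt plus and 6 with a lower one, and DESeq2 called 24. The product with RA called 0 genes (0%) in edgeR, with 646 at an unadjusted p under 0.05, a smallest adjusted p of 0.0898, and 0 in DESeq2. The product with Bmp called 0 (0%), with 469 unadjusted and 0 in DESeq2, and that with Tgfb 0 (0%), with 400 unadjusted and 3 in DESeq2.

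Mixl1 had the smallest p among the genes whose Fgf change was higher at Wnt plus. At Wnt plus it was at 28.3 to 279 CPM (median 95.8) with Fgf plus and at 3.47 to 82.8 (median 24.5) with Fgf minus, 16 wells each. At Wnt minus the medians were 8.83 and 10.9 CPM. The Fgf change of Mixl1 was 1.65 ± 0.21 at Wnt plus and -0.51 ± 0.33 at Wnt minus, a difference of 2.16 ± 0.39 (adjusted p = 0.00115). Nrp1, a co-receptor of semaphorins and VEGF, had a difference of 2.61 ± 0.51 (1.45 against -1.15), and the kinase gene Camkk2 one of 0.93 ± 0.20 (0.67 against -0.26). Neither Nrp1 nor Camkk2 had a called Fgf change over all wells.

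S100a6 was the converse case. At Wnt minus its medians were 343 CPM with Fgf plus (152 to 641) and 77.8 with Fgf minus (31.2 to 149), which did not overlap. At Wnt plus they were 159 (93.1 to 326) and 86.6 (37.6 to 229), which did. Its Fgf change was 2.11 ± 0.16 at Wnt minus and 0.80 ± 0.17 at Wnt plus, a difference of -1.31 ± 0.24 (adjusted p = 0.00115). Ptrf, which encodes the caveolar protein cavin-1, changed by 1.72 ± 0.19 at Wnt minus and 0.25 ± 0.16 at Wnt plus, and Gchfr, a regulator of GTP cyclohydrolase, by 1.65 ± 0.16 and 0.26 ± 0.20. At Wnt minus, Gchfr was at 40.3 ± 17.7 CPM (SD, n = 16) with Fgf plus and 12.3 ± 5.5 with Fgf minus, while at Wnt plus it was at 15.4 ± 3.9 and 12.7 ± 5.3.

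**Figure D4:**
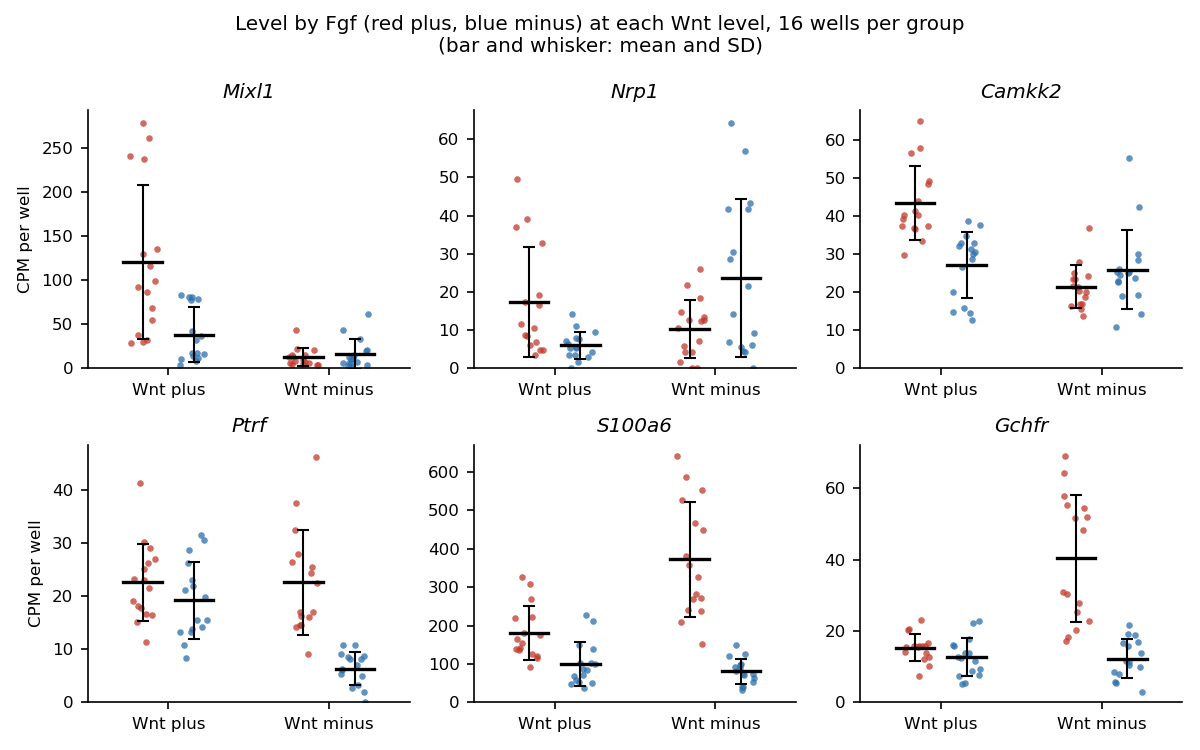
CPM per well of Mixl1, Nrp1, Camkk2, Ptrf, S100a6 and Gchfr on linear axes at the 4 combinations of Wnt and Fgf level (red Fgf plus, blue Fgf minus), 16 wells each, with bars at the means and whiskers of 1 SD. For Mixl1 the mean is higher with Fgf plus at Wnt plus (121 against 37.9 CPM), and for S100a6 the gap is wider at Wnt minus (372 against 81.4 CPM) than at Wnt plus (181 against 99.5 CPM).

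The Fgf change was compared with that from the undirected start by a product of Fgf and starting state over the wells of both. Of 8791 genes, 129 differed (1.47%), 82 with a more positive change after the mesendoderm start and 47 with a less positive one. From the undirected start alone 1030 of 7063 genes were called (14.6%). Krt18 was at 0.83 ± 0.15 after the mesendoderm start and at -0.34 ± 0.18 without it, a difference of 1.17 (adjusted p = 0.00281), and Krt8 and Krt19 differed in the same direction. Krt19 was too low to be tested in the wells of the undirected start alone. Utf1 differed the other way, with 0.45 ± 0.10 against 1.14 ± 0.11. For Spry4 (1.74 against 1.53), Etv4 (1.45 against 2.04), Dusp6 (0.92 against 1.17) and Nanog (-0.65 against -0.62) the difference did not pass, with adjusted p of 0.837, 0.148, 0.676 and 0.970.

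A separate mesendoderm experiment, with other cells and a design of more signals, allowed a contrast of 168 Fgf plus and 132 Fgf minus wells of fewer cells each. Only the germ layer design names its Fgf compounds, so whether they were the same in both experiments was not checked. Of 2328 genes tested, 216 passed (9.28%): 88 rose (3.78%) and 128 fell (5.5%). With wells of at least 10 cells, 16 genes passed. Of the 536 genes called in the mixed wells and tested in both, 452 (84.3%) had the same sign there, beside 65.6% of all 2322 genes tested in both. Of these 536, 119 (22.2%) were called there as well, 118 of them with the same sign, and they were 55.3% of the 215 genes called there. Across genes, Pearson's r of the log2 changes was 0.63 over the 2322 genes, which are not independent replicates. S100a6 rose there by 1.53 ± 0.11 (258.7 against 88.0 CPM), beside 1.497 in the mixed wells, and Fn1 by 0.45 ± 0.08. Mixl1 rose by 0.38 ± 0.12 (adjusted p = 0.0192). Krt8 (0.29 ± 0.10, adjusted p = 0.0612) and Krt18 (0.10 ± 0.10, adjusted p = 0.643) did not pass there. Spry4, Etv4, Dusp6 and Nanog were too low in those wells to be tested.

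**Figure D5:**
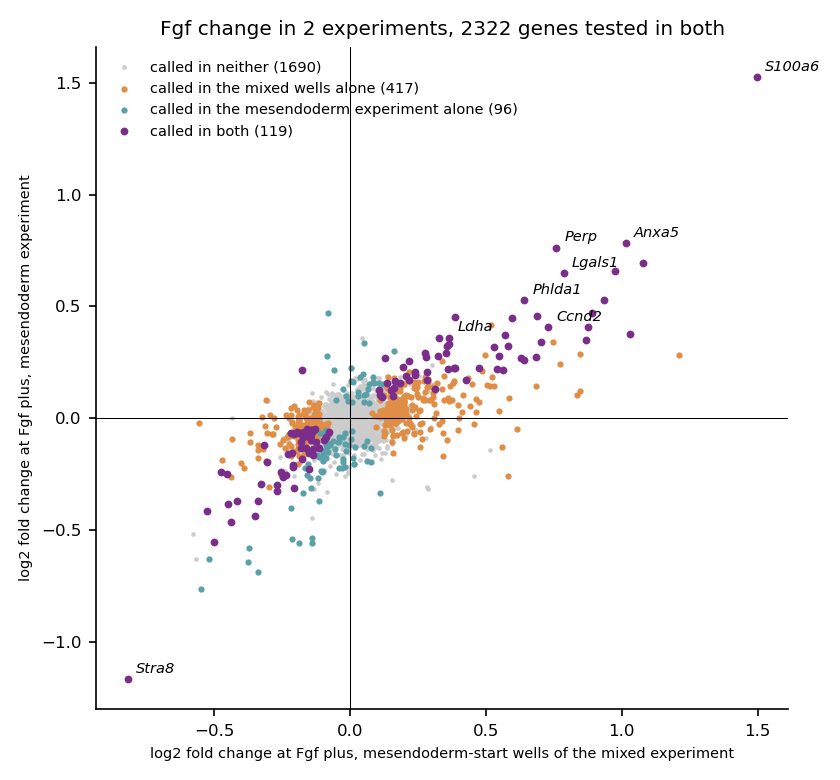
Log2 change at Fgf plus against minus of the 2322 genes tested in both experiments, with the mixed wells of mesendoderm start on the x axis and the mesendoderm experiment on the y axis, coloured by where a gene was called (both, the mixed wells alone, the mesendoderm experiment alone, or neither). Of the 119 genes called in both, 118 share their sign, and S100a6 lies farthest out among the rises at 1.497 and 1.53 and Stra8 among the falls at -0.82 and -1.17.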

How the data were processed

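The 72 wells came from a droplet single-cell library of 5944 cells. The deposited matrix holds raw UMI counts per gene and cell. The authors also deposited barcodelet assignments with a fraction per cell for its most abundant barcodelets. Cells whose assignment passed were used as deposited, and the rule behind the assignment is not in the sources used. No doublet caller was run, so a cell with a pair of tags was removed only where those assignments remove it. Tools and build are listed, without roles, in the submitters' processing notes: Cell Ranger 1.3.1, HTSeq 0.9.1, STAR 2.5.2b and mm10. Barcodes shared with the other single-cell libraries were 64 and 111, of 737280 possible.

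Counts were summed per well, since cells of a well are not replicates. In such sums, fewer cells of a type and less RNA per cell cannot be told apart. Each gene was fitted with edgeR 4.0.16 (R 4.3.3, TMM, genes kept by filterByExpr, 2-sided quasi-likelihood test, p adjusted by Benjamini-Hochberg over all genes tested) on additive terms for RA, Wnt, Bmp, Tgfb and Fgf, coded 0.5 and -0.5, and an indicator for controls. Adjusted p-values of genes come from this tool unless DESeq2 1.42.0 is named. Each interaction was the product of 2 terms in a fit of its own, adjusted over its genes alone. On simulated counts for this comparison, with 100 of 8574 genes changed at each fold, 94% of 1.5-fold and 100% of 2-fold changes were recovered, with 14 false calls among 208. The simulated wells had no effect of the other pathways, of the control state or of interactions. Changes under 1.5-fold, which most called genes had, were not simulated. Gene coordinates are from GENCODE vM21 (GRCm38). Strand use in counting is not stated, so genes whose exons overlap another are uncertain.

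The wells, the 36 lists (460 distinct genes) and the tests were chosen with earlier results of these data known. Named genes were the 10 with the largest fitted change each way among those called with a mean of at least 10 CPM, the FGF and ERK list members, up to 4 members of each list with the smallest adjusted p and its leading member of the opposite sign, and 3 genes each way of the Wnt interaction. Not all of them are reported here. Anxa2 and Ptpn11 were chosen for sequence display after the motif search.

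Alternatives were DESeq2, library totals alone, no filter, minimum cells per well, pairwise products, depth terms, each background left out, and, added after the data were seen, the barcodelet set as a term or apart, cells per well as a term, and thinned counts.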

Additional observations from a re-analysis of the deposited data

Results flagged for a closer look

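Among 100 named genes, 11 had an Fgf change that differed between the mesendoderm and the undirected start, beside 129 of all 8791 genes (1.47%). The test was the product of Fgf and starting state (edgeR, adjusted over all genes). S100a6, Emp3, Krt19, Anxa2 and Anxa3 were named for their large rise in the mesendoderm-start wells. That choice favours a positive difference, so the share and the signs among named genes are not a result of their own. The difference, as the change after the mesendoderm start less that without it, was 1.55 for Krt19 (adjusted p = 0.00985), 1.17 for Krt18 (0.00281) and 1.05 for Krt8 (0.00751), the keratin genes. It was 1.09 for Anxa2 (0.0181), 0.909 for Anxa3 (0.0117), 0.781 for S100a6 (0.0314) and 1.06 for Emp3 (0.0387). Krt19, Anxa2 and Emp3 were too low to be tested in the wells of the undirected start alone, so their differences rest on low counts there. Gchfr differed by 1.12 (0.00228), with a change of 1.10 ± 0.14 after the mesendoderm start and of -0.03 ± 0.17 without it. Fn1 differed by 0.702 (0.00699) and Slc2a3, a glucose transporter, by 0.705 (0.00208), and both were lower at Fgf plus from the undirected start (-0.32 ± 0.10 and -0.33 ± 0.11) and higher from the mesendoderm start. Utf1 was the member with the opposite sign, at -0.684 (0.00677).

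In the 8 control wells, a single well stood far from the others for 8 of the 100 named genes. For these genes the gap over the group's range was above Dixon's critical value, which chance alone exceeds in a small share of groups. How many of the 100 genes would pass by chance was not computed. The 8 genes are therefore listed as a description and are not a result of their own. Stra8 was at 53.5 CPM in its farthest well (next well 22.03), Cidea at 17.1 (6.88) and Aqp3 at 21.7 (11.8). Sox2 was at 376.7 CPM (324.7), Tfap2c at 94.9 (66.0), Fn1 at 183.7 (129.7), Car2 at 230.7 (173) and Sprr2a3 at 43.2 (20.4). Control wells enter the Fgf change only through the shared spread, not through its estimate.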

How the results depend on the processing

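Of 84 named genes that passed, 68 kept the call under each of 17 alternatives, leaving aside the barcodelet subsets, the thinned wells and the backgrounds left out in turn. Spry1 alone of the 84 changed sign, thinned. DESeq2 called 624 genes higher and 622 lower. Library totals alone called 1061 and 364, of which 997 were also called with TMM. The barcodelet set as a replicate block called 1376 genes (679 higher, 697 lower). The wells with 3 barcodelets alone called 648 (345 and 303) and those with 5 alone 521 (257 and 264), and 588 of 608 genes called with 3 and tested with 5 had the same sign with 5. Wells thinned to 195183 UMIs called 429 (223 and 206). These subsets hold fewer wells or counts. Leaving out each background gave 1088 to 1289 calls, 555 to 652 higher and 533 to 637 lower. All 4 products in 1 fit gave 2 genes for Fgf and RA, DESeq2 gave 3 for Fgf and Tgfb, and wells of at least 10 cells gave 16 in the mesendoderm experiment.

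Signs changed for genes near 0, and the cause was not tested. Dusp7 was at 0.033 with library totals alone, 0.0066 with no filter, 0.037 with at least 20 cells, 0.00063 with pairwise products, 0.073 with 3 barcodelets, 0.024 with cells per well as a term, 0.019 thinned, and -0.068 to 0.026 with a background left out. Etv5 was at -0.031 with UMIs per cell as a term, -0.043 with 5 barcodelets and -0.0069 to 0.086 with a background left out. Nrp1 was at 0.0083 in DESeq2, 0.10 with products, 0.029 with UMIs per cell, 0.13 with 5 barcodelets and -0.39 to 0.076 with a background left out. Cdc20 was at -0.036 with cells per well, -0.023 thinned and -0.00071 to 0.075 with a background left out, and Tfap2c at 0.012 with cells per well and -0.13 to 0.023 with a background left out. Thinned, Spry1 was at -0.085 and Znrf3 at 0.051. Srf was at -0.059 with 3 barcodelets and Camkk2 at -0.016 with 5. With cells per well as a term Egr1 was called (0.60, adjusted p = 0.0127).

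The fits without replicate 1 or 2 and with plate as a term were not run, since the design table used gives neither replicate nor plate; keeping all wells with a cell changes nothing, since the smallest holds 8.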
